A study of Mus musculus with 12 samples.

Results

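The RNA levels of 10 genes of tendon and of the matrix around connective tissue cells were followed in 12 RNA-Seq libraries of mouse forelimb chondrocytes. The genes were chosen by symbol, as the rows of the deposited table named *Scx*, *Mkx*, *Tnmd*, *Thbs1*, *Thbs2*, *Thbs3*, *Thbs4*, *Tnc*, *Tnn* and *Postn*, and they make up 10 of 36186 rows. The embryos were E15.5 and of a mixed 129/CD-1 strain background, and the cells came by laser capture microdissection (LCM) from the zeugopod, the part of the limb that holds the radius and ulna. The WT groups were the resting, proliferative and hypertrophic compartments of the growth cartilage, with 3 libraries each. The fourth group was *aadd*, homozygous for frameshift mutations in 6 Hox genes (*Hoxd9*, *Hoxd10*, *Hoxd11*, *Hoxa9*, *Hoxa10* and *Hoxa11*), also with 3 libraries. All 12 libraries share stage, tissue and strain background, and no animal was treated. The labels call the hypertrophic libraries hyperproliferative and place the *aadd* libraries in the resting compartment, while the methods state that all chondrocytes of the small mutant element were captured as 1 population, and that captured cells brought some perichondrium with them. Values are NRPKM, a read density per kb of transcript and per library size (RPKM) that the authors normalized again between libraries, so levels of different genes can be compared per length.

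Tendon cells are known by a small set of regulators. *Scx* encodes Scleraxis, a basic helix-loop-helix factor of tendon and ligament progenitors, *Mkx* encodes Mohawk, a homeodomain factor needed for tendon collagen, and *Tnmd* encodes tenomodulin, a membrane glycoprotein of maturing tendon cells. Thrombospondins are secreted calcium-binding glycoproteins that sit in the pericellular matrix, *Thbs1* and *Thbs2* forming trimers and *Thbs3*, *Thbs4* and the cartilage protein *Comp* forming pentamers. Tenascin-C (*Tnc*), tenascin-N (*Tnn*) and periostin (*Postn*) are matricellular proteins that bind integrins and fibronectin and are typical of perichondrium, periosteum, tendon and other fibrous tissue, rather than of the interior of cartilage.

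Promoter windows in RefSeq (build GRCm38.p6) matched 7 members, and the 3 below are shown because the matrix genes they precede had the steepest fall (*Thbs3*) and the widest spread upward (*Tnc* and *Postn*) in the hypertrophic compartment. Each is the 250 bases before the transcription start, written 5' to 3' on the gene's own strand, and capitals mark every E-box, CANNTG, the letters that basic helix-loop-helix factors such as Scleraxis can bind.
Thbs3, chr3:89214930-89215179, plus strand: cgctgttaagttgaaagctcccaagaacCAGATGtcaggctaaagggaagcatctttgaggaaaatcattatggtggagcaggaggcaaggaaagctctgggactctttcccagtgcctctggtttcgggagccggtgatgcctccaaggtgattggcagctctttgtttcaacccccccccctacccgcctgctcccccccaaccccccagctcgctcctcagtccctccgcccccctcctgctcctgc
Tnc, chr4:64047016-64047265, minus strand: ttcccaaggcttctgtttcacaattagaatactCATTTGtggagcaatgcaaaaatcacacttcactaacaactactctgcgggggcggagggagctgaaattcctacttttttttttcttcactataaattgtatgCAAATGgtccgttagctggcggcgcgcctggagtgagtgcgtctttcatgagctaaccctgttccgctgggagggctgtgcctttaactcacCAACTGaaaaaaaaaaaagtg
Postn, chr3:54360857-54361106, plus strand: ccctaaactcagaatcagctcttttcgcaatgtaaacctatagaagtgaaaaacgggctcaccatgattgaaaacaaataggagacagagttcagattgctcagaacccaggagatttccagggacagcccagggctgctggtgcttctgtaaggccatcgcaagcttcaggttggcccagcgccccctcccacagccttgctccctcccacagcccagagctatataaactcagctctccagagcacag
The *Tnc* window held 3 E-boxes, beginning 217, 113 and 21 bases before the start. The *Thbs3* window held 1, beginning 222 bases before the start, and the *Postn* window held 0. Among the other members with a window, *Thbs2* and *Thbs4* held 1 each and *Tnmd* and *Tnn* held 0. The motif reads the same on both strands, and 66.2% of 32851 windows of the same length held at least 1. A TATA box (TATAAA, searched on both strands) began 26 bases before the start of *Postn*. In *Tnc* and *Thbs2* the same letters on either strand began farther off, 126 bases before the start of each. They were found in 12.4% of all windows. A GC box (GGGCGG, searched on both strands) was found in the windows of *Thbs3*, *Thbs4* and *Tnc*, against 32.7% of all windows. These are matches of letters and not mapped binding sites.

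The rows span chr15:76457438-76459468 for *Scx*, chr2:118111922-118127133 for *Thbs1*, chr17:14665500-14694262 for *Thbs2*, chr3:89215187-89226837 for *Thbs3*, chr13:92751586-92794818 for *Thbs4*, chr4:63959785-64047015 for *Tnc*, chr1:160085032-160153575 for *Tnn*, chr3:54361107-54391041 for *Postn* and chrX:133851008-133865578 for *Tnmd* (mm10). *Scx* lies on the plus strand inside the *Bop1* row of the minus strand, and *Tnc* overlaps 2 non-coding rows. The use of strand in counting was not stated, so reads of *Scx* and *Bop1* cannot be told apart where they overlap. *Bop1* ran from 7.54 to 20.9 NRPKM in the 12 libraries, and its part in the *Scx* values was not tested.

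Depth and cell content set how far these values reach. From single-exon genes, 1 read on 1 kb of transcript was worth 0.309 to 0.53 NRPKM, an equivalent of 1890000 to 3240000 reads per library. The values were normalized again between libraries, so this is not a count of the reads in each. Approximately 1.82 to 26.4 reads stood behind *Scx*, 0 to 27.1 behind *Tnmd* and 1.96 to 159 behind *Thbs4*, and 24 to 178 behind *Tnn*, so these 4 genes carry the largest counting error. The other 6 rested on 34.9 reads or more in every library. Chondrocyte markers were high in all libraries except WT hypertrophic replicates 2 and 3. In WT hypertrophic replicates 1, 2 and 3 the summed NRPKM of 10 chondrocyte markers was 2600, 554 and 801, that of 7 osteoclast markers was 31, 1090 and 768, that of 10 endothelial markers was 24.4, 324 and 227, that of 6 macrophage markers was 22.7, 239 and 215 and that of 5 erythroid markers was 63.2, 367 and 402. Replicate 1 was therefore nearer to the proliferative libraries than to replicates 2 and 3 in these lists, whose sums there were 2710 to 4310, 8.6 to 23.7, 10.6 to 25.5, 16.3 to 21 and 60.9 to 145. Replicate 1 stood above the proliferative libraries in the sum of 6 hypertrophic chondrocyte markers (1190, against 241 to 514) and of 6 osteoblast markers (301, against 141 to 188), where replicates 2 and 3 reached 3080 and 3370 and 405 and 536. *Col10a1*, the collagen of hypertrophic cartilage, was at 264 NRPKM in replicate 1, the highest of the 12 libraries. *Ihh*, another hypertrophic marker, was also highest there, at 56.3 NRPKM against 9.54 and 15.3 in replicates 2 and 3. *Calcr*, the calcitonin receptor of osteoclasts, was listed at 0 in replicate 1 and at 16.2 and 4.97 NRPKM in replicates 2 and 3. Against WT proliferative, 9 of 10 chondrocyte markers tested were called lower, and 2 of 2 osteoclast, 2 of 3 endothelial and 1 of 1 macrophage markers that passed the filter were called higher. The labels do not say that the 3 hypertrophic libraries differ, and the hypertrophic calls named below are given with and without them. A drop in such bulk samples can be fewer cells of a type or less RNA per cell, which cannot be told apart.

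Differences between groups were tested in limma on log2(NRPKM + 0.1) over 10936 genes. A gene was called at an unadjusted *P* up to 0.05 with a fold change (FC) of at least 2 between WT compartments, or at least 1.5 between *aadd* and WT resting. The Benjamini-Hochberg adjusted *P* over all genes tested is given beside it. All fold changes are on this log2 scale.

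*Scx* and *Mkx* fell in the hypertrophic compartment, and *Mkx* rose in *aadd*, the only member called there. *Tnmd* was low and uneven between libraries, from 0 to 9.1 NRPKM (approximately 0 to 27.1 reads). *Scx* was at 5.77, 2.72 and 4.61 NRPKM in WT resting and at 3.36, 4.89 and 4.69 NRPKM in WT proliferative. It was at 2.64, 1.52 and 0.591 NRPKM in WT hypertrophic and at 7.83, 3.2 and 8.92 NRPKM in *aadd*. The hypertrophic libraries lay below all others, and the other 3 groups overlapped. *Mkx*, the more abundant of the pair, was at 17.4, 14.7 and 12.1 NRPKM in WT resting, at 10.1, 10.5 and 12.2 NRPKM in WT proliferative and at 7.42, 2.7 and 5.8 NRPKM in WT hypertrophic. In *aadd* it reached 27.9, 25.5 and 33.6 NRPKM. All 3 *aadd* libraries exceeded all 9 WT libraries, and all 3 hypertrophic libraries were below the other 9. Ordered by mean, *Mkx* ran from *aadd* (29 ± 4.17 NRPKM, SD, n = 3) to WT resting (14.7 ± 2.65), WT proliferative (10.9 ± 1.07) and WT hypertrophic (5.31 ± 2.4), and only the resting and proliferative neighbours overlapped.

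**Figure D1:**
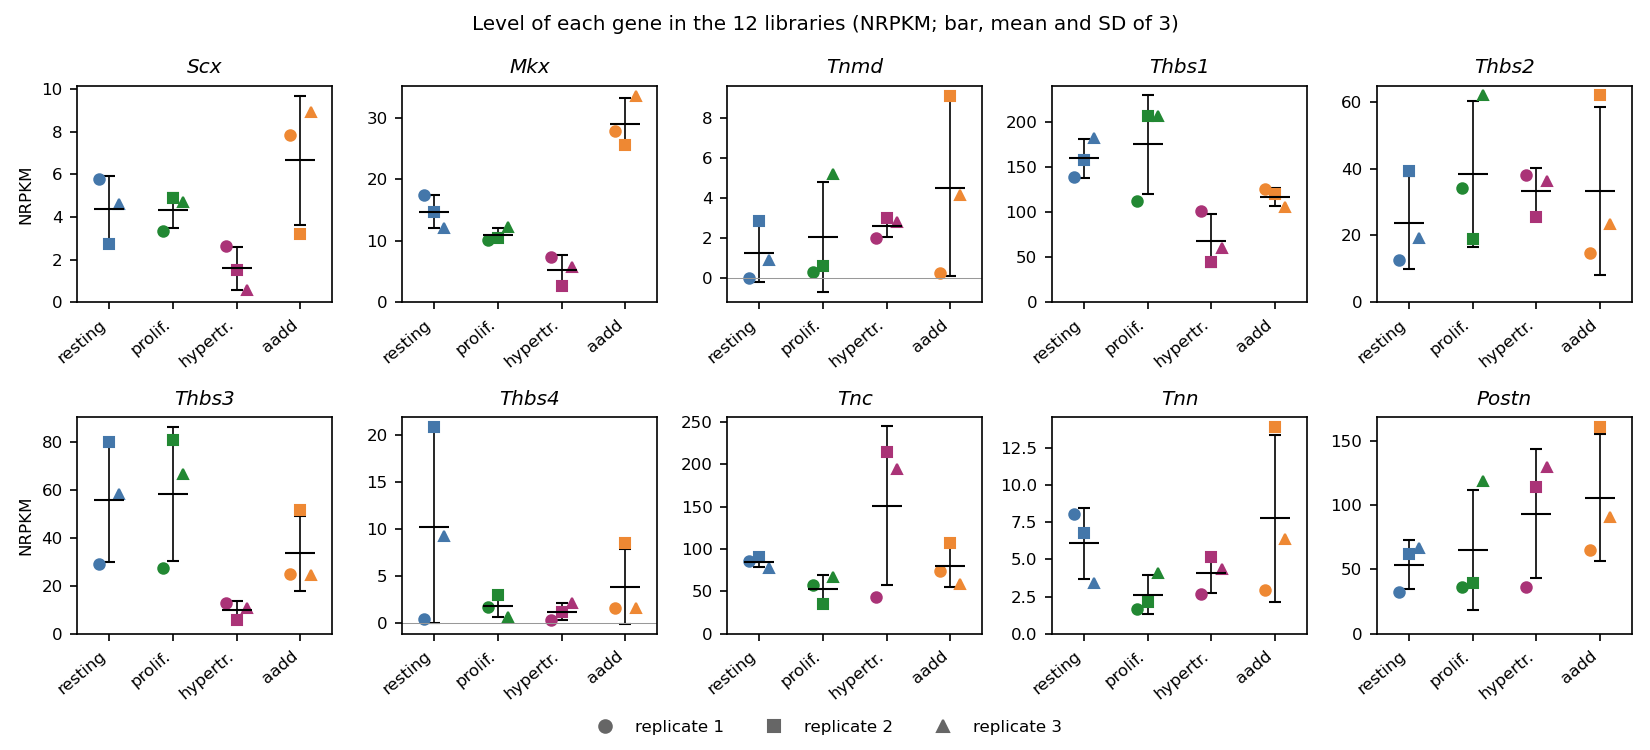
Each panel plots 1 gene. The vertical axis is NRPKM on a linear scale, points are the 3 libraries of each of the WT resting, WT proliferative, WT hypertrophic and aadd groups (shape, replicate number), and bars are the mean and SD. Mkx is highest in the 3 aadd libraries (25.5 to 33.6 NRPKM), Thbs3 is lowest in the 3 hypertrophic libraries (5.75 to 12.9 NRPKM), and Tnc and Postn spread widely within the hypertrophic group.

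*Tnmd* was listed at 0, 2.83 and 0.885 NRPKM in WT resting, at 0.317, 0.576 and 5.21 NRPKM in WT proliferative, at 1.98, 3.01 and 2.79 NRPKM in WT hypertrophic and at 0.271, 9.1 and 4.14 NRPKM in *aadd*. The groups overlapped, and single libraries of WT proliferative and *aadd* stood highest. *Tnmd* was the 1 member that did not pass the filter on low values (5 NRPKM or more in 3 or more of the 12), so 9 members were tested. In an exact permutation test of the 3 against 3 libraries, two-sided, its *P* was 0.8, 0.4, 0.3 and 0.4 in the comparisons of proliferative with resting, hypertrophic with proliferative, hypertrophic with resting and *aadd* with resting. The smallest *P* such a test can give is 0.1. The muscle marker sum was also highest in the proliferative library with the most *Tnmd* (45.3 NRPKM over 10 genes, against 7.75 and 16.6 in the other 2). The same held for the *aadd* library with the most *Tnmd* (28.3, against 14.5 and 10.7). *Myod1*, a defining muscle factor, was at 0.857 and 0.245 NRPKM in these 2 libraries and listed at 0 in 6 of the 12. Its highest value was in WT hypertrophic replicate 3 (0.906 NRPKM), and within *aadd* it was highest in replicate 3 (0.377). The part of muscle in the *Tnmd* values was not tested.

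The comparison of WT proliferative with WT resting asks what changes as chondrocytes leave the resting pool. None of the 9 members was called higher and 1, *Tnn*, was called lower, where 2.56% and 2.97% of all genes tested were called higher and lower. *Tnn* was at 8.06, 6.74 and 3.4 NRPKM in WT resting and at 1.63, 2.16 and 4.1 NRPKM in WT proliferative, so 1 library of each group overlapped. The difference was -1.19 (SE 0.44), a fold of 2.28, with adjusted *P* = 0.26 in limma, and the exact permutation test of the 3 against 3 libraries, two-sided, gave 0.2. With the replicate number as a block the call was lost, at the same difference and 0 members called. Leaving out resting replicate 1 or 2, or proliferative replicate 1 or 2, also ended it, with differences from -1.11 to -0.91.

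*Tnc* separated without being called. It was at 86.5, 90.2 and 78 NRPKM in WT resting and at 58, 34.7 and 66.5 NRPKM in WT proliferative, lower in 3 of 3 libraries. Its difference of -0.73 (SE 0.27, limma adjusted *P* = 0.26) is a fold of 1.66, under the limit of 2. It was the 1 member whose libraries did not overlap, where 24% of all genes did not. *Scx* (0.03), *Thbs1* (0.09), *Thbs3* (0.04) and *Postn* (0.12) had log2 differences near 0, with 95% intervals of -0.72 to 0.77 for *Scx*, -0.58 to 0.77 for *Thbs1*, -1.22 to 1.3 for *Thbs3* and -1.13 to 1.37 for *Postn*. After adjustment 0 members passed, where 0.622% of genes did.

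In WT hypertrophic against WT proliferative, which follows cells into hypertrophy, 4 of 9 members were called lower and 0 higher, where 4.34% and 5.32% of all genes were called lower and higher. The 4 were the tendon factors *Scx* and *Mkx* and the thrombospondins *Thbs1* and *Thbs3*. In each of them the 3 hypertrophic libraries lay below the 3 proliferative ones, where 24.2% of all genes did not overlap. *Scx* passed the filter (5 NRPKM or more in 3 libraries) only through WT resting replicate 1 and *aadd* replicates 1 and 3. With the filter over the 6 libraries compared *Scx*, *Thbs4* and *Tnn* were not tested, and 3 members were called. The fall of *Scx* was -1.59 (SE 0.51, limma adjusted *P* = 0.2), a fold of 3, and that of *Mkx* was -1.14 (SE 0.38, limma adjusted *P* = 0.21), a fold of 2.21. The exact permutation test, two-sided, gave 0.1 for each of the 4, the smallest value it can give. After adjustment 0% of genes passed in this comparison, 0 members among them, although 2115 genes had an unadjusted *P* up to 0.05 in limma. Without hypertrophic replicate 1, 1905 genes passed adjustment and so did 5 members, with an adjusted *P* in limma of 0.03 for *Scx*, 0.047 for *Mkx*, 0.031 for *Thbs1*, 0.032 for *Thbs3* and 0.018 for *Tnc*. With hypertrophic replicate 1 alone the differences were -0.67 for *Scx*, -0.55 for *Mkx*, -0.74 for *Thbs1* and -2.03 for *Thbs3*. The spread of 1 library is assumed to be that of the other group, so these are given as sizes only. That replicate 1 lay below every proliferative library for these 4 genes restates the lack of overlap given above. Replicate 1 and the lowest proliferative library were at 2.64 and 3.36 NRPKM for *Scx* and at 7.42 and 10.1 for *Mkx*. They were at 101 and 112 NRPKM for *Thbs1* and at 12.9 and 27.2 for *Thbs3*. The call of *Scx* was also lost without proliferative replicate 2 or 3 (-1.49 and -1.52), and that of *Mkx* without proliferative replicate 2 or 3 or hypertrophic replicate 2 (-1.17, -1.06 and -0.73), while *Thbs1* and *Thbs3* stayed called with each of the 6 libraries left out. *Tnn* was called higher (1.02) without proliferative replicate 3, although it passed the filter mainly through WT resting and *aadd* libraries.

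**Figure D2:**
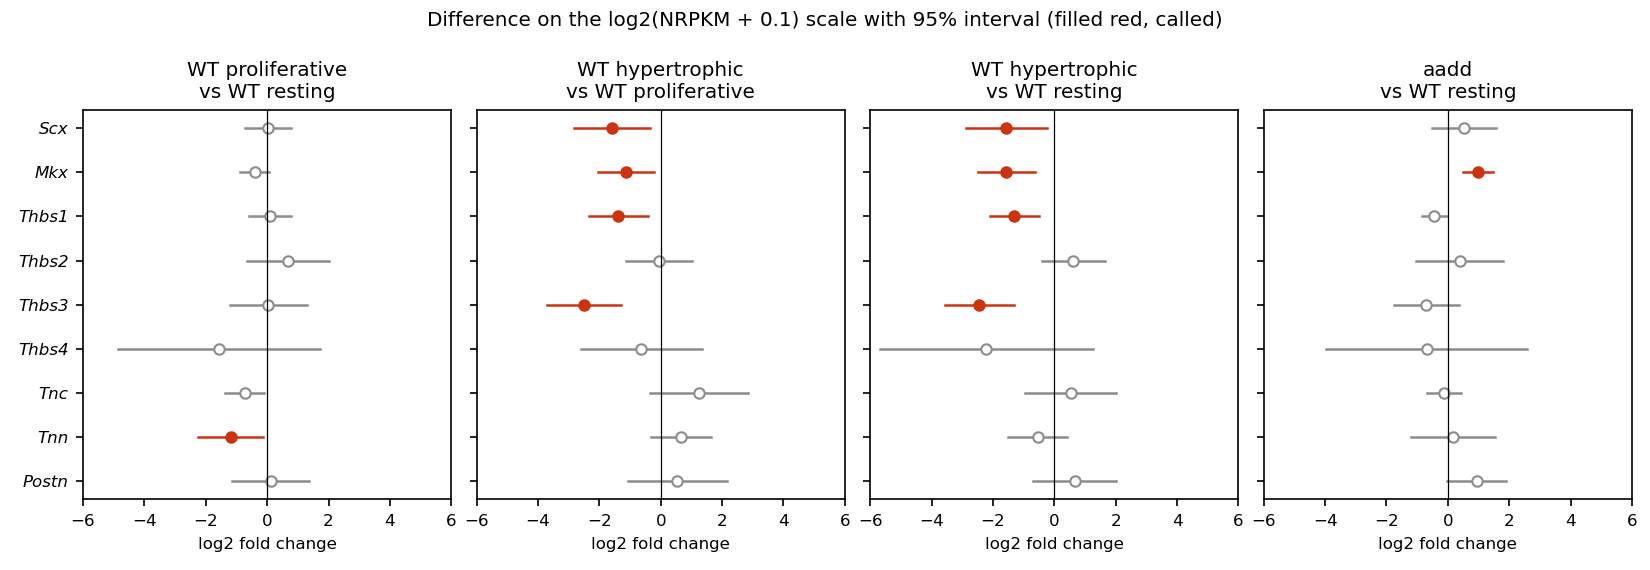
Log2 fold change (horizontal axis, log2(NRPKM + 0.1) scale) with its 95% interval for the 9 members tested, in 4 comparisons. Filled red points are called, and open grey points are not. Thbs3 has the largest called fall in both hypertrophic comparisons (-2.49 and -2.45), Mkx is the 1 called rise in aadd (0.98), and Thbs4 has the widest intervals.

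*Thbs1*, a trimeric thrombospondin that can activate latent TGF-beta, had the highest mean level per length of *Thbs1* to *Thbs4* in every group. *Thbs1* was at 139, 158 and 182 NRPKM in WT resting, at 112, 207 and 207 NRPKM in WT proliferative, at 101, 44.2 and 60.1 NRPKM in WT hypertrophic and at 125, 120 and 106 NRPKM in *aadd*. Hypertrophic libraries were lowest, and the *aadd* libraries lay between them and the resting ones without overlap. Its fall from proliferative to hypertrophic was -1.39 (SE 0.39, limma adjusted *P* = 0.18), a fold of 2.62. *Thbs3*, a pentameric member expressed in developing cartilage and bone, was at 28.9, 80.1 and 58.4 NRPKM in WT resting, at 27.2, 80.9 and 66.7 NRPKM in WT proliferative, at 12.9, 5.75 and 10.9 NRPKM in WT hypertrophic and at 24.8, 51.4 and 24.3 NRPKM in *aadd*. It had the steepest fall of the 9 members, -2.49 (SE 0.5, limma adjusted *P* = 0.13), a fold of 5.61, in 3 of 3 libraries. Within the other 3 groups it varied from 24.3 to 80.9 NRPKM, and these overlapped.

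*Thbs2*, a trimeric member of fibrous tissue that limits vessel growth, did not separate any pair of groups. Its values were 12.7, 39.3 and 19.3 NRPKM in WT resting, 34.1, 18.8 and 61.9 NRPKM in WT proliferative, 38.2, 25.5 and 36.2 NRPKM in WT hypertrophic and 14.8, 62 and 23.4 NRPKM in *aadd*. The difference of hypertrophic from proliferative was -0.06 with a 95% interval of -1.14 to 1.03, so a change of 2-fold either way lies inside it. *Thbs4*, found in tendon and muscle attachments, was at 0.406, 20.8 and 9.28 NRPKM in WT resting, at 1.73, 2.94 and 0.579 NRPKM in WT proliferative, at 0.262, 1.16 and 2.08 NRPKM in WT hypertrophic and at 1.57, 8.46 and 1.56 NRPKM in *aadd*. Resting replicates 2 and 3 were far above replicate 1, which rests on 3.8 reads. Its difference of -1.57 between proliferative and resting (SE 1.37, limma adjusted *P* = 0.59) became -3.17 and was called without resting replicate 1. *Thbs4* passed the filter only through WT resting replicates 2 and 3 and *aadd* replicate 2. With the filter over the 6 libraries compared it was not tested between WT compartments.

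The composition of the family was described by the share of each gene in the summed NRPKM of *Thbs1* to *Thbs4* and *Comp*, which was 254 to 441 in WT resting, 361 to 654 in WT proliferative, 124 to 355 in WT hypertrophic and 214 to 384 in *aadd*. No test was run on shares. *Thbs3* made up 14.3% ± 3.64 of that sum in WT resting (SD, n = 3), 10.2% ± 2.44 in WT proliferative and 4.92% ± 1.45 in WT hypertrophic, with no overlap between the hypertrophic libraries (3.63 to 6.48%) and the others (7.55% or more). *Thbs2* made up 6.14% ± 2.54 in WT resting, 7.35% ± 3.87 in WT proliferative and 17.6% ± 5.93 in WT hypertrophic. Its share in hypertrophic replicates 2 and 3 was 20.6% and 21.5%, and in replicate 1 it was 10.8%, just above the highest proliferative library at 9.71%. *Comp*, a pentameric protein of cartilage and tendon matrix, held 33.1% ± 5.34 in WT resting and 50.4% ± 2.84 in WT proliferative. In *aadd* the shares were 42.1% ± 9.54 for *Thbs1*, 34.6% ± 6.05 for *Comp*, 11.3% ± 2.16 for *Thbs3* and 10.8% ± 5.34 for *Thbs2*, inside or overlapping the resting ranges.

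**Figure D3:**
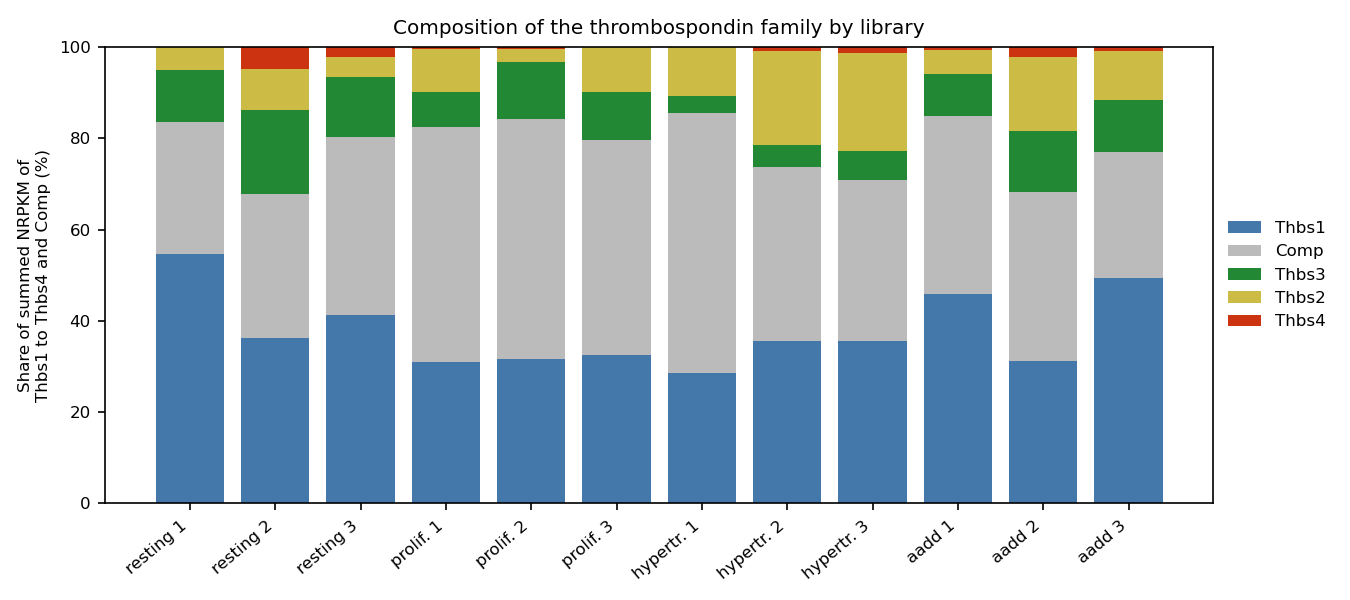
Stacked bars, 1 per library, show the share (%) of the summed NRPKM of Thbs1, Thbs2, Thbs3, Thbs4 and Comp that each gene holds. Thbs1 and Comp fill most of every bar, Thbs3 is thinnest in the 3 hypertrophic libraries (3.63 to 6.48%), and Thbs2 is thickest in hypertrophic replicates 2 and 3 (20.6 and 21.5%).

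*Tnc*, *Tnn* and *Postn* were not called in either hypertrophic comparison, and *Tnc* and *Postn* differed widely among the hypertrophic libraries. *Tnc* was at 43.3, 215 and 195 NRPKM in WT hypertrophic and at 74.5, 107 and 58.8 NRPKM in *aadd*. Hypertrophic replicate 1 was within the proliferative range, whereas replicates 2 and 3 were above the other 10 libraries. Against WT proliferative the difference was 1.25 (SE 0.66, limma adjusted *P* = 0.33), and without replicate 1 it was 2 (limma adjusted *P* = 0.018), while replicate 1 alone gave -0.24 (limma adjusted *P* = 0.98). *Postn*, named for the periosteum and needed for collagen cross-linking, was at 32.1, 62.3 and 67 NRPKM in WT resting, at 36.7, 39.3 and 119 NRPKM in WT proliferative, at 36, 114 and 130 NRPKM in WT hypertrophic and at 65.3, 161 and 90.9 NRPKM in *aadd*. Again hypertrophic replicate 1 was low and replicates 2 and 3 were high. *Tnn*, a tenascin of bone-forming tissue, was at 2.65, 5.18 and 4.32 NRPKM in WT hypertrophic and at 2.97, 13.9 and 6.37 NRPKM in *aadd*, and these groups overlapped with the resting one.

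The 2 hypertrophic libraries with high *Tnc* and *Postn* are those with high osteoclast, endothelial, macrophage and erythroid sums. They also had the highest hypertrophic chondrocyte sums (3080 and 3370 NRPKM, against 1190 in replicate 1) and osteoblast sums (405 and 536, against 301). The markers of the hypertrophic sum did not all go the same way. In replicates 1 to 3 *Mmp13* was at 3.05, 735 and 661 NRPKM, *Spp1* at 24.1, 1080 and 979 and *Ibsp* at 718, 968 and 1330. *Alpl* was at 121, 122 and 162 NRPKM. *Col10a1* (264, 166 and 221 NRPKM) and *Ihh* (56.3, 9.54 and 15.3) were highest in replicate 1. The sum of 8 perichondrial and fibroblast markers was also higher in replicates 2 and 3, at 1010 and 1610 NRPKM. It was 685 in replicate 1 and 465 to 1010 in WT proliferative. *Col1a1* made up most of this sum, at 360, 723 and 1190 NRPKM in replicates 1 to 3. *Col3a1*, *Dcn*, *Col14a1* and *Twist1* were also higher in replicates 2 and 3. *Lum* (240, 115 and 199 NRPKM) and *Dpt* were lower, and *Pdgfra* lay on both sides of replicate 1. The part of any of these cell types in the *Tnc* and *Postn* values was not tested. *Scx*, *Mkx*, *Thbs1* and *Thbs3* had their highest hypertrophic value in replicate 1, the library with the highest chondrocyte marker sum.

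**Figure D4:**
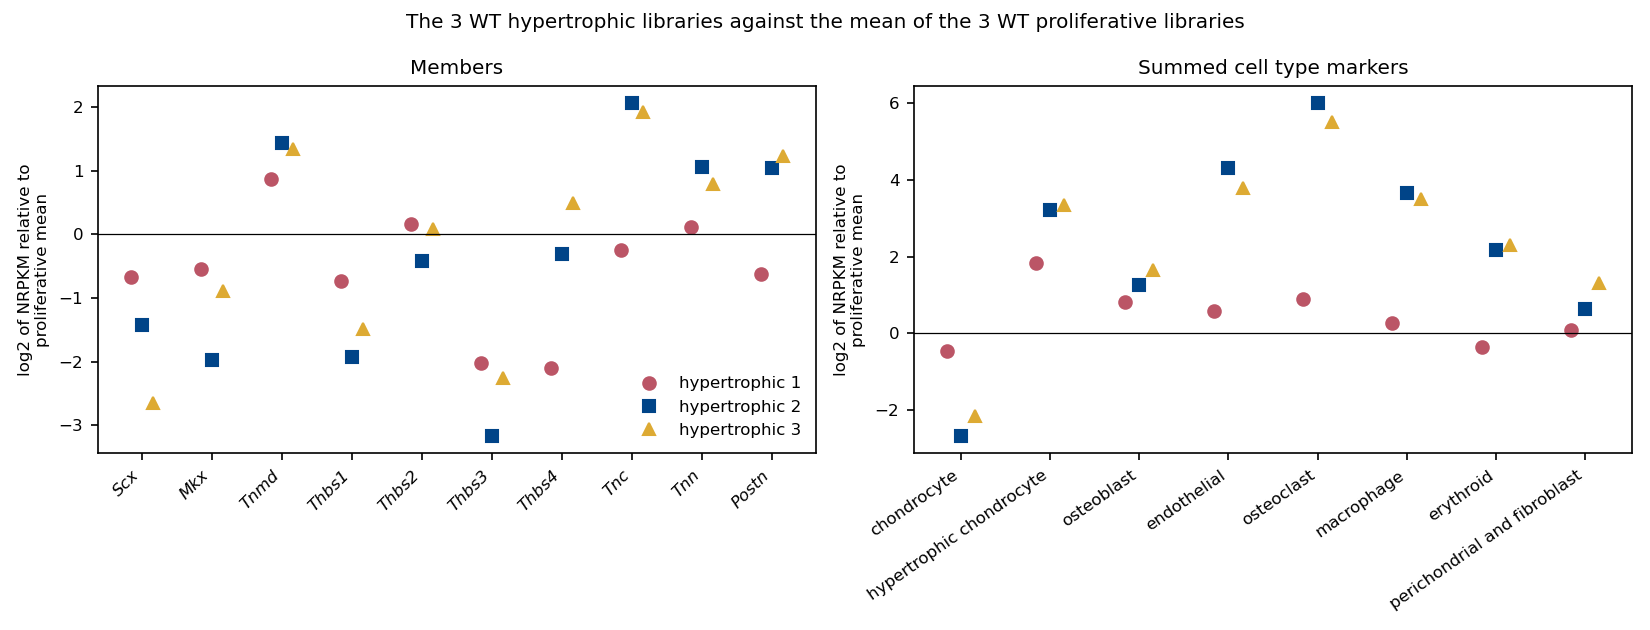
Both panels show the 3 WT hypertrophic libraries as log2 of NRPKM relative to the mean log2 value of the 3 WT proliferative libraries (0 line). The left panel plots the 10 members and the right panel plots summed markers of 8 cell types. Thbs3 is below 0 in all 3 libraries, whereas Tnc and Postn are above 0 in replicates 2 and 3 alone, the libraries in which the endothelial, osteoclast, macrophage and erythroid sums are high.

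WT hypertrophic against WT resting spans the whole course of differentiation. The same 4 members were called lower and 0 higher, where 7.2% and 5.84% of all genes were called lower and higher, and the 4 did not overlap, where 32% of genes did not. *Mkx* fell by 1.56 (SE 0.39, limma adjusted *P* = 0.069), *Thbs1* fell by 1.3 (SE 0.32, limma adjusted *P* = 0.069) and *Scx* fell by 1.56 (SE 0.54, limma adjusted *P* = 0.13). *Thbs3* fell by 2.45 (SE 0.47), a fold of 5.46, and was the 1 member with a limma adjusted *P* under 0.05, at 0.036, where 6.36% of genes passed. The call of *Scx* was lost without resting replicate 1 or 3 or hypertrophic replicate 3, where its difference was -1.02 to -1.49. It was also lost without the filter on low values and with quantile normalization (-1.02). With the filter over the 6 libraries compared *Scx* and *Thbs4* were not tested. Without hypertrophic replicate 1 the differences were -2.01 for *Scx*, -1.85 for *Mkx*, -1.62 for *Thbs1* and -2.68 for *Thbs3* (limma adjusted *P* = 0.034, 0.02, 0.0066 and 0.019 in that order). With that library alone they were -0.64 for *Scx*, -0.96 for *Mkx*, -0.65 for *Thbs1* and -1.99 for *Thbs3*, and *Tnc* was at -0.97. Without that library *Tnc* was called higher (1.27, limma adjusted *P* = 0.0055) and so was *Postn* (1.25, limma adjusted *P* = 0.056). The sign of the *Tnc* difference thus depended on which hypertrophic libraries were used. *Thbs4* was called lower (-3.81) without resting replicate 1, and *Thbs2* higher (1.06) without resting replicate 2. Both hypertrophic comparisons use the same 3 hypertrophic libraries.

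The comparison of *aadd* with WT resting asks how the Hox mutant chondrocytes differ from the WT cells they most resemble. Of 9 members 1, *Mkx*, was called higher and 0 lower, where 3.78% and 2.78% of all genes were called higher and lower. The rise of *Mkx* was 0.98 (SE 0.2, 95% interval 0.5 to 1.46), a fold of 1.97, with adjusted *P* = 0.2 in limma, in 3 of 3 libraries. The exact permutation test, two-sided, gave 0.1 for it, the smallest value it can give. It kept its call with each of the 6 libraries left out, at 0.84 to 1.11. After adjustment 0 members passed, where 0.119% of genes did. *Mkx* and *Thbs1* were the 2 members without overlap between the groups, where 15.4% of genes had none. *Thbs1* was lower by 0.44 (log2 difference -0.44, SE 0.17, limma adjusted *P* = 0.48), a fold of 1.36 that is under the limit of 1.5.

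*Postn* came close to a call in *aadd*, at 0.94 (SE 0.41, limma adjusted *P* = 0.54), a fold of 1.92, and its libraries overlapped by 1 value. It was called higher without resting replicate 3 (1.14) or *aadd* replicate 1 (1.24). *Scx* was at 0.53 (95% interval -0.52 to 1.58) and *Thbs3* at -0.71 (-1.77 to 0.36), and neither passed. *Tnc* was at -0.13 with an interval of -0.69 to 0.44, so a change of 1.5-fold or more upward is outside it. Of the 10 members, 7 had their highest *aadd* value in replicate 2, namely *Tnmd*, *Thbs2*, *Thbs3*, *Thbs4*, *Tnc*, *Tnn* and *Postn*. This library also had the highest fibroblast marker sum of the 3 *aadd* libraries (823 NRPKM against 370 and 401), the highest endothelial sum of the group at 59.9 and the highest muscle sum at 28.3. Their part was not tested. Without *aadd* replicate 2, *Scx* (0.99) and *Thbs3* (-1.06) were also called, and *Thbs2* went from 0.38 to -0.19. Without WT resting replicate 1, *Thbs3* (-1.12) and *Thbs4* (-2.28) were called lower. The *aadd* and hypertrophic comparisons share the WT resting libraries.

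*Mkx* and the summed joint markers were both highest in *aadd*. The summed NRPKM of 6 joint genes (*Gdf5*, *Prg4*, *Osr1*, *Osr2*, *Erg* and *Sfrp2*) was 218 to 230 in *aadd*, 122 to 150 in WT resting, 37.6 to 59.7 in WT proliferative and 27.8 to 48.9 in WT hypertrophic, the same order of group ranges as for *Mkx*, although the last 2 ranges overlap. Of these genes 3 were called higher in *aadd*, with *Osr1*, a zinc finger factor of connective tissue and joints, at 2.01 (SE 0.3, limma adjusted *P* = 0.099) and *Gdf5*, a growth factor of the joint interzone, at 1.44 (SE 0.34, limma adjusted *P* = 0.25). *Sfrp2*, a secreted Wnt antagonist, was at 0.91. The other 3 were not called, with *Osr2* at 0.48, *Erg* at 0.15 and *Prg4*, lubricin of the joint surface, at -1.53 (2.62 NRPKM in *aadd* against 14.4 in WT resting). Of the perichondrial and fibroblast markers 2 of 7 tested were also called higher in *aadd*, *Twist1* at 1.39 and *Pdgfra* at 0.61. The part of joint or perichondrial cells in the *Mkx* values was not tested.

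**Figure D5:**
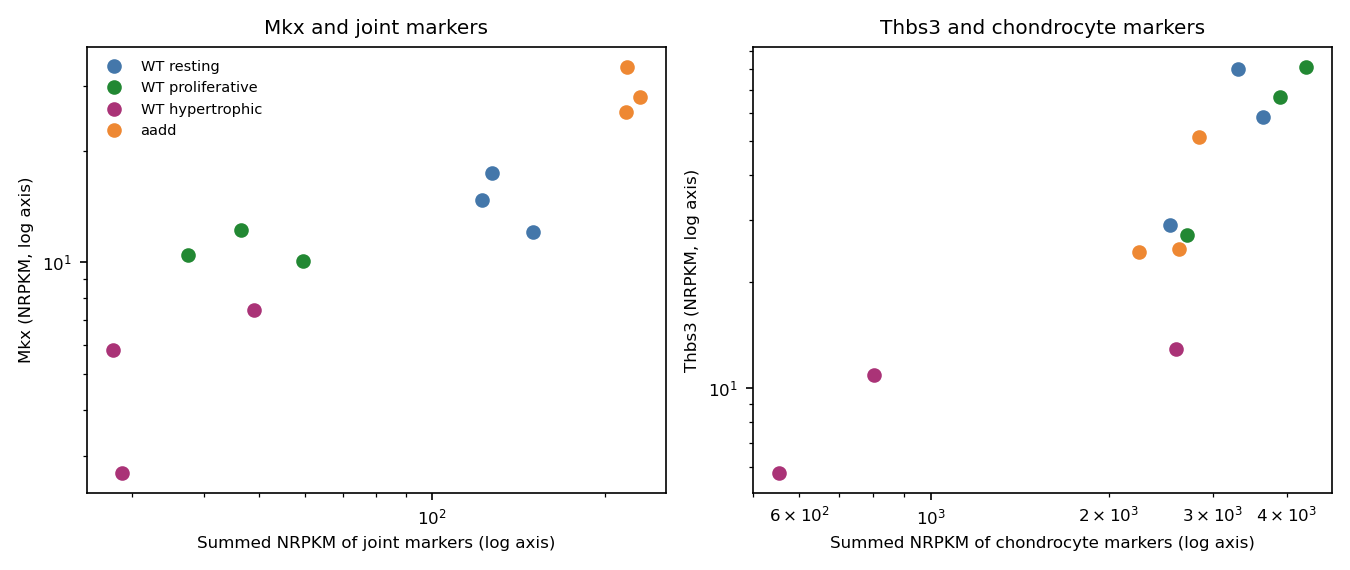
Each point is 1 of 12 libraries, and both axes are NRPKM on log scales. Mkx is plotted against the sum of 6 joint markers and Thbs3 against the sum of 10 chondrocyte markers. The aadd libraries have both the most Mkx (25.5 to 33.6) and the highest joint sums (218 to 230). Hypertrophic replicate 1 has Thbs3 at 12.9 and a chondrocyte sum of 2600.

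Over all 4 groups, limma's moderated F test gave an adjusted *P* under 0.05 for 3 of 9 members, where 13.8% of all genes passed. They were *Mkx* (0.0037), *Thbs3* (0.023) and *Thbs1* (0.038), and *Scx* was at 0.066. *Thbs3* was at 12.9 NRPKM in hypertrophic replicate 1, with a chondrocyte sum of 2600 NRPKM. Resting and proliferative replicates 1 had sums of 2540 and 2710 and *Thbs3* at 28.9 and 27.2 NRPKM. The sums were made up differently. *Hapln1* was higher in hypertrophic replicate 1 (595 NRPKM, against 330 and 438), and most other markers were lower, such as *Matn1* (123, against 195 and 169). The part of chondrocyte content in the *Thbs3* values was not tested.

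The surroundings of the members in their pathways were described by lists. Of the regulators of tendon fate, 10 of 12 were tested. Between WT proliferative and WT resting 1 was called higher and 1 lower, *Eya2* (2.1, SE 0.69, limma adjusted *P* = 0.23), a transcriptional cofactor, and *Smad3* (-1.09, SE 0.27, limma adjusted *P* = 0.15), a transducer of TGF-beta. Between WT hypertrophic and WT proliferative *Egr1*, an immediate early factor that acts in tendon, was called higher (2.39, SE 0.87, limma adjusted *P* = 0.23), and *Gdf5* (-2.58) and *Sox9* (-2.42), the main factor of cartilage, lower. *Egr1* was at 7.32, 60.1 and 70.5 NRPKM and *Sox9* at 143, 12.9 and 17.6 NRPKM in hypertrophic replicates 1 to 3, against 4.19 to 7.18 and 164 to 180 NRPKM in WT proliferative, so both calls rested on replicates 2 and 3. With replicate 1 alone the differences were 0.3 for *Egr1*, -0.78 for *Gdf5* and -0.26 for *Sox9*, none of them called, and without it they were 3.43, -3.48 and -3.49. In *aadd* *Gdf5* and *Eya2* (1.69, SE 0.51, limma adjusted *P* = 0.35) were called higher and 0 lower. The list's median log2 change in *aadd* was 0.27, against 0.01 over all genes.

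Of the tendon and fibrous matrix genes, 15 of 16 were tested. Between WT hypertrophic and WT resting 3 were called higher and 3 lower, with medians of -0.2 for the list and -0.02 for all genes. *Col5a2*, a fibrillar collagen chain, was at 1.86 (SE 0.37, limma adjusted *P* = 0.041) and *Fmod*, fibromodulin, a small proteoglycan of tendon and cartilage, at -2.79 (SE 0.79, limma adjusted *P* = 0.089). With hypertrophic replicate 1 alone these were 1.43 and -4.15, and without it 2.07 and -2.11, called each time. In *aadd* *Eln*, elastin, was the 1 called gene (0.93, SE 0.33, limma adjusted *P* = 0.44). Of 14 receptors and partners, 12 were tested. *Lox*, lysyl oxidase, which cross-links collagen, was called higher in all 4 comparisons, at 1.64 in WT proliferative against resting, 1.69 and 3.33 in WT hypertrophic against proliferative and resting, and 1.4 in *aadd* against resting (limma adjusted *P* = 0.18, 0.18, 0.0037 and 0.25 in that order). *Itga8*, an integrin chain that pairs with beta 1 to bind tenascin-C, was called lower in 3 of them, at -1.48, -2.02 and -0.75 in proliferative, hypertrophic and *aadd* against resting. With hypertrophic replicate 1 alone *Lox* was at 1.2 against proliferative, not called, and at 2.84 against resting, called, and *Itga8* was at -1.3 against resting, called. Without that library the same differences were 1.93, 3.57 and -2.38, all called. Of the 4 family relatives 2 were tested. *Comp* was called higher in WT proliferative against resting (1.16, SE 0.38, limma adjusted *P* = 0.23) and lower in WT hypertrophic against proliferative (-1.69), as was *Tgfbi* (-2.45, SE 0.45, limma adjusted *P* = 0.12), a relative of periostin. *Comp* was at 202, 47.4 and 59.3 NRPKM in hypertrophic replicates 1 to 3, and replicate 1 was inside the proliferative range of 185 to 344 NRPKM. With replicate 1 alone *Comp* was at -0.4, not called, and *Tgfbi* at -1.41, called, and without it they were at -2.33 and -2.97.

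For each tested member the 3 other genes with the most similar profile over the 12 libraries were found by Pearson's *r* of log2(NRPKM + 0.1). The libraries fall into 4 groups of shared samples and share depth, so *r* is a description. *Mkx* was most like *Hoxd11* (0.956), *Jmy* (0.953) and *Gli3* (0.941), and stayed near them without hypertrophic replicates 2 and 3 (0.947, 0.938 and 0.9, 10 libraries). *Hoxd11* is 1 of the 6 mutated genes, so its RNA in *aadd*, where *Mkx* was highest, carries a frameshift. *Tnc* was most like *Pdgfrb* (0.975), the receptor of pericytes and fibroblasts, and *Col4a1* (0.959), a chain of basement membrane collagen, and *Kirrel* (0.958). *Thbs3* was most like *Ppp1r1b* (0.97), *C1qtnf3* (0.97) and *Clec3a* (0.957), the last 2 being secreted cartilage proteins. *Thbs1* was most like *5430428K19Rik* (0.978), *S100b* (0.974) and *Epyc* (0.974), a small proteoglycan of growth cartilage. The closest gene was at 0.931 for *Scx* (*Zfp445*), 0.888 for *Postn* (*Tm4sf1*), 0.872 for *Thbs4* (*Zbtb7a*), 0.866 for *Tnn* (*Atg7*) and 0.777 for *Thbs2* (*Prickle3*).

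Among the 36 pairs of the 9 members, *Thbs1* and *Thbs3* had the highest *r* (0.93 over 12 libraries, and 0.844 over 10 without hypertrophic replicates 2 and 3), followed by *Scx* and *Mkx* (0.758 and 0.649). *Thbs1* and *Tnc* had the lowest (-0.712), which was -0.071 without those 2 libraries. *Tnc* and *Postn* were at 0.637 and 0.502. The negative *r* of *Tnc* with *Thbs1* therefore rested on hypertrophic replicates 2 and 3, and the positive *r* of *Thbs1* with *Thbs3* did not.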

How the data were processed

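RNA-Seq was measured in 12 libraries, 3 for each of 4 groups that were taken from the sample labels. Per the submitters' notes reads were aligned with TopHat to mm10. The authors dropped low-quality, multiply aligned and duplicate reads, and worked in GeneSpring. The deposited unit is RPKM, normalized once more between libraries (NRPKM), on a linear scale for 36186 rows, and the method of that scaling is not given in the sources used here. No counts were used, so a count test was not run. The depth was an equivalent of 1890000 to 3240000 reads per library on that scale, not a count of reads. It was read from the value that marks 1 read in 1711 single-exon receptor and keratin-associated genes under 1500 bp, and it covers counting error only. Reads per gene come from value and exon length and are approximate.

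Tests ran in limma 3.58.1 (R 4.3.3) on log2(NRPKM + 0.1), after a filter (5 NRPKM or more in 3 or more of 12 libraries), taking the 6 libraries of each comparison and no covariate. A call rests on the unadjusted *P* and the fold, and the text prints the Benjamini-Hochberg adjusted *P* or an exact one. This pseudocount understates changes of low genes. Tables and plots used Python 3.11.15, pandas 2.3.3, NumPy 2.4.6 and matplotlib 3.10.9. The fits were tested on simulated data. Members and lists were chosen with earlier results of these data known. The genes named are all members, the 3 tested genes most correlated with each, and at most 4 of each pathway list by smallest *P*. Some single cell type markers are also named where they make up a sum.

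Replicates carry the numbers 1 to 3. Deviations of same-numbered WT proliferative and resting libraries from their group means correlated at 0.281, 0.179 and 0.198, so the block value is given where it changed a call there. No such pairing was seen in the other comparisons. The labels do not state separate animals for the replicates, though the study names independent sets, so *P* measures the spread between these libraries. Alternatives were a pseudocount of 1, no filter, a filter over the 6 libraries, quantile normalization, rescaling by median ratios, each library left out, a variance trend, the replicate block and a single fit of all 12 libraries. The fit with hypertrophic replicate 1 alone, and both hypertrophic alternatives for listed genes, were added after seeing the data.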

Additional observations from a re-analysis of the deposited data

How the results depend on the processing

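The replicate block left 0 members called between WT proliferative and resting (1 without it), 4 between hypertrophic and proliferative, 5 between hypertrophic and resting, where *Thbs4* was added and the limma adjusted *P* of *Thbs3* rose to 0.11, 3 in *aadd*, where *Postn* and *Thbs3* were added, and 2 across the 4 groups. With the block 671, 1026, 1466 and 789 of 10936 genes were called in the 4 pairwise comparisons, in that order. Without it 280, 582, 639 and 413 were called higher and 325, 475, 787 and 304 lower. In *aadd* 0 genes passed adjustment with the block. Only proliferative and resting numbers pair the libraries by the correlation of their deviations. The same-number correlation was -0.058 to 0.124 for hypertrophic with proliferative, 0.063 to 0.111 for hypertrophic with resting and -0.097 to 0.28 for *aadd* with resting. The count between proliferative and resting was also 0 with a pseudocount of 1, without the filter, with the filter over the 6 libraries (which *Tnn* did not pass), with quantile normalization and with all 12 libraries in one fit, and 0 to 1 with a library left out. In *aadd* it was 2 with a pseudocount of 1, the filter over the 6 libraries and a variance trend, each adding *Postn*, and 1 to 3 with a library left out. Of all genes 650 of 10936, 608 of 10068 and 699 of 10936 were called with these settings in that order, and 547 to 997 with a library left out. Between hypertrophic and proliferative it was 2 to 5 with a library left out (658 to 2007 of all genes), the lowest without proliferative replicate 2. Between hypertrophic and resting it was 3 to 6 with a library left out (1196 to 2105 of all genes). It was also 3 there without the filter and with quantile normalization, each losing *Scx*. With the filter over the 6 libraries it was 3 in both comparisons. *Scx* and *Thbs4* were then not tested in either, and *Tnn* was not tested against proliferative. Across the 4 groups it was 1 without the filter and 1 to 5 with a library left out, the highest without hypertrophic replicate 1 and the lowest without replicate 2 or 3.

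Signs turned only for members that were not called. Under quantile normalization *Thbs1* (-0.08) and *Thbs3* (-0.03) turned between proliferative and resting. With a library left out the log2 differences there ran from -0.27 to 0.26 for *Scx*, -0.05 to 0.39 for *Thbs1*, -0.37 to 0.52 for *Thbs3* and -0.43 to 0.42 for *Postn*, between hypertrophic and proliferative from -0.48 to 0.37 for *Thbs2* and -1.24 to 0.09 for *Thbs4*, and in *aadd* from -0.19 to 0.84 for *Thbs2*, -2.28 to 0.4 for *Thbs4*, -0.36 to 0.07 for *Tnc* and -0.38 to 0.72 for *Tnn*. With hypertrophic replicate 1 alone *Thbs2* (0.16), *Tnc* (-0.24) and *Postn* (-0.62) turned against proliferative, and *Tnc* (-0.97) and *Postn* (-0.51) against resting. Over all members and alternatives 442 values kept sign and call, 26 turned, 26 lost a call and 20 gained one. The cause was not tested. Low depth limits *Scx*, *Tnmd*, *Thbs4* and *Tnn*.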
